A study of Microtus ochrogaster with 40 samples.

Results

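Immature neurons were followed in single-nucleus RNA-seq of the nucleus accumbens, a ventral striatal region, of 40 prairie voles (Microtus ochrogaster). A nucleus counted as one when the UMIs (unique molecular identifiers, one for each captured transcript) of Cd24a, Dcx and Sox4 summed to at least 3 with at least 2 of these genes detected, and when Slc17a7, DRD1A, DRD2, Mki67 and Top2a had 0 UMIs. The rule names Sox11 as well, which was not analysed here. It was applied to the 185995 nuclei with at least 500 UMIs and at most 5% mitochondrial UMIs, of 194518 barcodes, and kept 157 nuclei, or 0.0844%. Each library held the nuclei of 1 animal housed for 16 days with a partner. The labels do not say which animals shared a cage, so both partners may be among the 40, and the tests treat animals as independent. The partner was of the opposite sex (mate) or of the same sex (peer), which gave 11 mate and 8 peer females, and 11 mate and 10 peer males. No group was unpaired, and the labels used here give neither genotype nor age. Libraries held 1793 to 8204 kept nuclei and 3002288 to 14907749 UMIs in them. The library male mate 2 stood apart by its median of 662 UMIs per nucleus, followed by female peer 1 with 935, while the highest library had 2201. Neither held an immature neuron. The barcode of 43 members (27.4%) was also kept in another library, as for 22.3% of all kept nuclei, and no barcode was a member in more than 1 library.

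Immature neurons are the postmitotic daughters of neural progenitors that have not yet built mature synapses. In adult rodents they arise chiefly in the subventricular zone beside the lateral ventricle, close to the accumbens, and migrate in chains toward the olfactory bulb, where most become GABA interneurons. Dcx encodes doublecortin, a microtubule-binding protein of migrating young neurons, Cd24a a surface glycoprotein of neuroblasts, and Sox4 a transcription factor of early neuronal differentiation. Slc17a7 marks glutamate neurons, DRD1A and DRD2 encode the dopamine receptors of medium spiny neurons, and Mki67 and Top2a mark dividing cells.

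Members were chosen by their UMI counts of the rule's genes, so these values are given as a description only. Pooled over the 157 nuclei, Cd24a stood at 918 CPM (the UMIs of a gene divided by all UMIs of the summed nuclei, on the usual scale of CPM values), Dcx at 746 CPM and Sox4 at 226 CPM. Cd24a with Dcx alone met the rule in 98 nuclei, all 3 genes were detected in 25, and Sox4 joined Cd24a alone in 17 and Dcx alone in another 17. Most members sat at the threshold, with 106 at a sum of exactly 3 UMIs and 51 at 4 or more. Just outside it lay 297 nuclei with 2 UMIs of 2 genes, 93 with at least 3 UMIs of 1 gene and 440 with 2 UMIs of 1 gene. The positive side of the rule was met by 331 nuclei, and the 5 genes required at 0 removed 174 of them. Of the 174, 78 had a UMI of Slc17a7, 65 of DRD1A, 16 of DRD2 and 60 of Mki67 or Top2a, and 52 had just 1 such UMI. The removed nuclei were deeper, with a median of 4010 UMIs, than the members, with 1123 (508 to 13256), while all other kept nuclei had 1555. Depth entered the rule on both sides, since a shallow nucleus meets 0 UMIs more easily: 47.3% of kept nuclei had 0 of the 5 genes. The positive gate was met by 0.0866% of 13859 mature oligodendrocytes (median 712 UMIs), which should lack these genes. It was met by 6.24% of 641 cycling nuclei (median 1091 UMIs) and 5.49% of 164 ependymal nuclei. Among 64919 other GABA nuclei (median 2201 UMIs) the rate was 0.202%. That class leaves members out by definition, so its rate counts only nuclei with a UMI of the 5 genes. The GABA rate is therefore low by construction and cannot be compared with the others.

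Several genes that the rule did not use differed with the summed count of Cd24a, Dcx and Sox4. Igfbpl1, an insulin-like growth factor binding protein-like gene found in developing neurons, stood at 21.1 CPM in the 81798 nuclei with 0 of the 5 genes and 0 UMIs of the rule's genes. It stood at 135 CPM in nuclei with 1 UMI, at 615 CPM with 2 UMIs of 2 genes, at 820 CPM in members with 3 UMIs and at 1465 CPM in members with 4 or more. Nuclei with 2 UMIs of a single gene were lower, at 196 CPM, and so were the 93 nuclei with 3 or more UMIs of a single gene, at 262 CPM. Dlx1, a homeobox factor of forebrain GABA neurons, went from 35.8 CPM at 0 UMIs to 410 and 637 CPM in the same member bins. Snap25, a synaptic vesicle fusion protein of all neurons, lay between 1142 and 1552 CPM in these bins, and at 1956 CPM with 3 or more UMIs of a single gene. Gad2 went from 693 CPM at 0 UMIs to 1034 CPM at 1 UMI and to 1412 and 1576 CPM in the member bins. Sst was highest outside the members, at 9943 CPM with 3 or more UMIs of a single gene, and stood at 584 CPM at 0 UMIs and at 2373 and 2643 CPM in the member bins. Between the member bins Tubb2b (721 and 629 CPM) and Dlx2 (475 and 438 CPM) were not higher in the upper one. The excluded nuclei that met the positive gate with a UMI of Mki67 or Top2a, 60 in all, had Igfbpl1 at 928 CPM, Dlx1 at 516 CPM and Snap25 at 652 CPM, below both member bins, beside Tubb2b at 980 CPM, Vim at 851 CPM and Sst at 74.7 CPM.

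**Figure D1:**
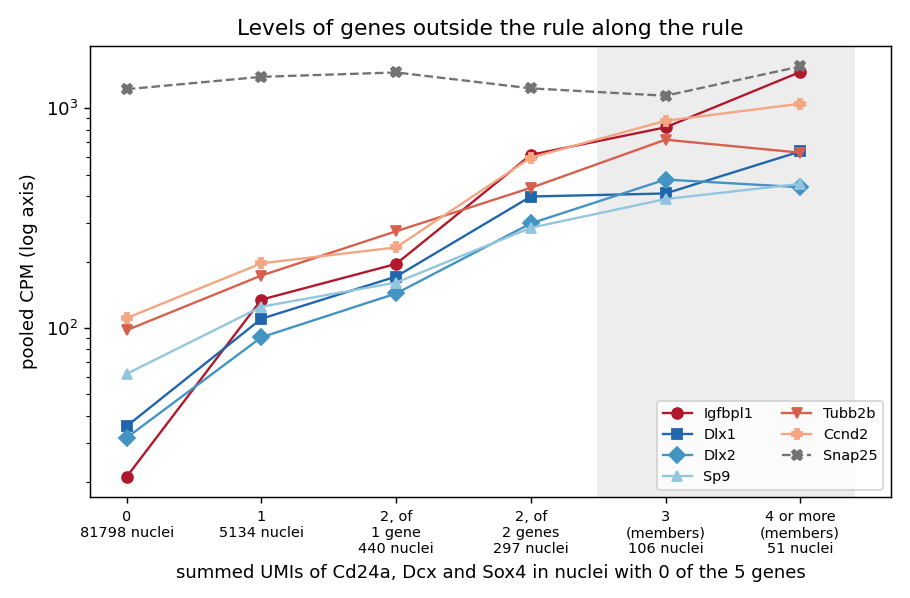
Pooled CPM (log axis) of 6 genes of young neurons and of Snap25 in nuclei with 0 of the 5 excluded genes, by the summed UMIs of Cd24a, Dcx and Sox4. Igfbpl1 goes from 21.1 CPM at 0 UMIs to 1465 CPM in members with 4 or more, whereas Snap25 lies between 1142 and 1552 CPM in the 6 bins drawn. Nuclei with 3 or more UMIs of a single gene are not drawn.

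The label was checked against markers outside the rule. Igfbpl1 was detected in 58.0% of members and in 0.621% of mature oligodendrocytes, at median depths of 1123 and 712 UMIs, and its pooled level in members was 1093 CPM. Some transcription factors of the forebrain GABA lineage were detected in many members, with Dlx2 in 47.1%, Dlx1 in 45.9%, Sp9 in 43.9% and Dlx5 in 42.0%. Dlx1 was detected in 1.18% of mature oligodendrocytes. In other GABA nuclei, which were deeper, these factors stood at 5.85%, 6.10%, 13.4% and 17.2%. Some other factors of the list were less frequent in members than in other GABA nuclei. Meis2 was detected in 60.5% against 63.0%, Foxp1 in 5.10% against 34.1%, Zfhx3 in 6.37% against 14.4% and Dlx6 in 1.27% against 7.68%. Dlx1 stood at 506 CPM in members and at 636 CPM in cycling nuclei. Of the 157 nuclei, 132 had a UMI of Gad1 or Gad2, the enzymes that make GABA. Factors of glutamate neuron precursors summed to 40.5 CPM in members and 19.2 CPM in other GABA nuclei. Tbr1 had 7 UMIs in 7 members, Neurod1 had 2 UMIs, Eomes, Neurod6 and Emx1 had 1 each, and Neurod2 and Neurog2 had 0. Only 1 member held 2 or more UMIs of the list. Sp8, a zinc finger factor of olfactory bulb interneuron precursors, stood at 84.4 CPM in members and 2.79 CPM in other GABA nuclei. St8sia2, the polysialyltransferase that coats Ncam1 on migrating neuroblasts, stood at 84.4 CPM against 3.43 CPM. Both had too few UMIs for the tests below.

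A minority went against the label. In 23 members from 16 animals, at least 3 UMIs came from Sst, Npy or Vip, peptides of mature interneurons. These 23 were deep, with a median of 3605 UMIs, and supplied 32.6% of all member UMIs. Their Igfbpl1 stood at 41.4 CPM, Ccnd2 at 51.8 CPM and Snap25 at 2774 CPM, and Sst at 7578 CPM. The other 134 members, from 35 animals and with a median of 964 UMIs, had Igfbpl1 at 1602 CPM, Ccnd2 at 1387 CPM, Snap25 at 611 CPM and Sst at 25.0 CPM. The peptide-rich nuclei were thus low in the genes of young neurons and high in a synaptic gene, and they are called by their leading genes, Sst, Npy and Vip. The split by peptides was chosen after the values were seen. Of the 157 members, 3 also met an ependymal gate, 1 the oligodendrocyte precursor gate and 0 the mature oligodendrocyte gate, 81 held at least 2 glial or vascular UMIs, and 4 (2.55%) were called doublets against 4.09% of all kept nuclei.

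**Figure D2:**
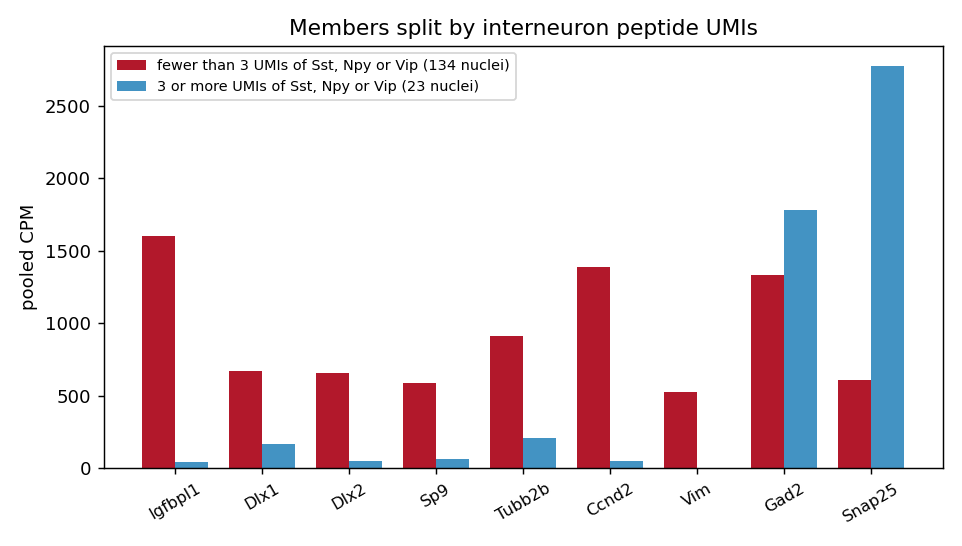
Pooled CPM of 9 genes in the 134 members with fewer than 3 UMIs of Sst, Npy or Vip and in the 23 members with 3 or more. Igfbpl1 stands at 1602 CPM in the first set and 41.4 CPM in the second, and Snap25 at 611 and 2774 CPM.

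The members were next set against other GABA nuclei of the same animals (nuclei outside the rule with at least 2 UMIs of Gad1 and Gad2). Counts were summed per animal and class in the 23 animals with at least 3 members, which held 137 of them, and tested with edgeR's quasi-likelihood test with the animal as a term. A gene was called at a Benjamini-Hochberg adjusted p under 0.05 and a log2 fold change of at least 1 in either direction. Of 3855 genes tested, 281 were higher in members (7.29%) and 383 lower (9.94%), and the median log2 fold change of all genes was 0.04. The 3 gate genes, the 5 excluded genes and Gad1 and Gad2 were not tested. The filter used the mean of the levels of both classes, so a gene abundant in 1 class alone could pass through that class, and counts over a list describe only its tested genes. Of the genes tested in each list, 8 of 11 lineage factors and 11 of 20 growth cone genes were higher in members, and 9 of 17 maturation genes were lower.

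Among the 22 listed transcription factors of the GABA lineage, 11 were abundant enough to test, and 8 were higher, 1 lower and 2 not called, with a median log2 fold change of 1.99. Dlx2 in members ranged over the animals from 0 to 1051 CPM around a median of 456 CPM, against 17.4 to 53.0 CPM in other GABA nuclei, a log2 difference of 3.73 (SE 0.26, edgeR adjusted p = 1.04e-30), and was higher in 22 of 23 animals. Dlx1 ranged from 0 to 1802 CPM (median 389) against 18.5 to 66.7 CPM, with a difference of 3.64. Both homeobox genes were thus higher in all but 1 or 2 of the animals. Sp9, Pbx3, Dlx5 and Etv1 were higher by 2.54, 2.05, 1.99 and 1.67 on the log2 scale. Foxp1, a factor of striatal projection neurons, was the 1 gene of the list that was lower, by a log2 change of -2.51, with a UMI in 5 of 23 animals. It had 12 UMIs in all members and reached the filter through its level in other GABA nuclei, so its change is a description. Meis2 (0.63) and Bcl11a (0.65) passed the adjusted p but not the fold. Of the factors with too few UMIs to test, Sp8 has been given, Dlx6 stood at 6.75 CPM in members against 33.0 CPM, Zfhx3 at 40.5 against 76.5 CPM and Nr2f1 at 64.1 against 11.7 CPM.

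Genes of the growth cone and young cytoskeleton followed, with 11 of 20 tested higher, 2 lower and a median of 1.32. Igfbpl1 had the largest rise among the called genes with a symbol, of 3855 genes tested. Its level in members was 0 CPM in the lowest animal, 837 CPM at the median and 3539 CPM in the highest, against 12.9 to 71.5 CPM in other GABA nuclei, a difference of 5.10 (SE 0.21, edgeR adjusted p = 9.42e-63). Tubb2b, a tubulin of migrating neurons, ranged from 156 to 2253 CPM (median 605) against 28.3 to 102 CPM and was higher in 23 of 23 animals by 3.37. Nrep, a growth-associated gene, was higher by 2.98, Marcksl1 by 2.20, Elavl2 by 2.05, Elavl4 by 1.99, Basp1 by 1.88 and Stmn1 by 1.62. In the growth cone list Islr2 (-1.49) and Dclk1 (-1.04) were lower. Islr2, with 14 UMIs in all members, reached the filter through other GABA nuclei. Dclk1 lost the call after thinning (-0.92), without the glial members (-0.89) and against GABA nuclei with 0 of the 5 genes (-0.77). Stmn3 (-0.05), Tubb3 (0.61) and Stmn2 (0.65) were not called.

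Of 12 tested genes of migration and guidance, 4 were higher and 2 lower, and their median of 0.21 was close to that of all genes. Slit1, a repellent that guides neuroblasts, was higher by 1.91, the adhesion genes Cdh2 and Ncam1 by 1.78 and 1.57, and the polysialyltransferase St8sia4 by 1.71. Ncam1 was higher in 23 of 23 animals. Slit1 and Cdh2 were not called with the size factors of DESeq2 (0.31 and 0.18). With the planned TMM scaling and expression filter together they were not called either (0.99 and 0.85). Vldlr, a reelin receptor, and Epha4, an ephrin receptor, were lower, by -1.61 and -1.27. Vldlr, with 15 UMIs in all members, reached the filter through other GABA nuclei. Epha4 was not called without the peptide-rich members (-0.97). The receptors Robo1, Robo2, Dcc and Erbb4 were not called.

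Among genes with a symbol, the others with the largest differences were Ddah2 (4.37), an enzyme of nitric oxide metabolism, the nicotinic receptor subunit Chrna3 (4.24), the developmental factor Eya1 (3.93), the growth factor Mdk (3.76), the filament Vim (3.45) and the nuclear envelope gene Syne2 (3.40). Chrna3 ranged from 0 to 662 CPM in members (median 286) against 5.32 to 38.2 CPM, and was higher in 19 of 23 animals. Mdk had UMIs in 9 animals only and Vim in 15. Of the cell cycle list, Ccnd2, a G1 cyclin kept by newborn neurons, was higher by 2.97 in 21 of 23 animals, and the cell cycle inhibitor Cdkn1b by 2.20. Cdkn1b was not called with the size factors of DESeq2 (0.67). Mki67 and Top2a were set to 0 by the rule.

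Genes of medium spiny neurons, the projection neurons of the striatum, are given as a description, since most of the genes tested passed the filter through their level in other GABA nuclei and the rule removes nuclei with a UMI of DRD1A or DRD2. Rgs9, a regulator of dopamine receptor signalling, ranged from 0 to 717 CPM in members (median 46.5) against 701 to 1518 CPM in other GABA nuclei, a log2 change of -3.80 (SE 0.29). The ranges of the classes met only between 701 and 717 CPM, and Rgs9 was lower in members of 23 of 23 animals. Tac1, a neuropeptide precursor, changed by -3.36, Ppp1r1b (DARPP-32) by -2.53 and Penk by -2.19. Adora2a had 4 UMIs in members and Gpr6 another 4, with log2 changes of -4.29 and -4.63. Meis1 stood higher, by 2.40, and by 0.84 and not called with the size factors of DESeq2.

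The other genes with a symbol and the largest falls had few UMIs in members, so their pooled ratios are given with exact Poisson 95% intervals that cover counting error only. Entpd3, with 1 UMI, was 47.2-fold lower (8.47 to 1864), and Ptprv, with 1 UMI, 39.7-fold lower (7.13 to 1570). Nexn, Scn4b and Syndig1l had 3 UMIs each and were 19.2-fold (6.57 to 93.1), 18.6-fold (6.36 to 90.2) and 15.8-fold (5.39 to 76.4) lower, and Kcnj2, also with 3 UMIs, was 15.8-fold lower with nearly the same interval. Slc24a4, with 4 UMIs, had a log2 change of -4.31. Scn4b and Kcnj2 encode channel subunits that set the firing of striatal neurons.

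Of 17 tested genes of neuron maturation 9 were lower and none higher, with a median of -1.14. Rbfox1, a neuronal splicing factor, changed by -2.05, the NMDA receptor subunit Grin2a by -2.03, Camk2b by -1.93, Nrgn by -1.87 and Grin1 by -1.57. Rbfox1 and Grin2a had 14 UMIs each in all members and reached the filter through other GABA nuclei, so their changes are a description. Slc12a5, the chloride exporter that makes GABA inhibitory in mature neurons, changed by -1.17 and was lower in 22 of 23 animals. Snap25 (-0.50) and Syp (-0.35) were not called. Transport of GABA showed no call, with Slc32a1 at -0.52.

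Other called genes were interneuron peptides and glial genes. Sst (1.18) and Vip (1.33) were called higher, but Sst was higher in 11 of 23 animals and Vip had UMIs in 4. With DESeq2 on library totals Sst stood at 0.014 (adjusted p = 0.991) and Vip at -4.14, and against GABA nuclei with 0 of the 5 genes Sst stood at 0.026 (edgeR adjusted p = 0.953). Leaving out the 23 peptide-rich members (19 animals and 109 members remained) turned Sst to -4.70, a direction that this choice of nuclei sets, since the other GABA nuclei kept theirs. In that comparison 13 of 14 tested maturation genes were lower (median -2.10), 9 of 11 lineage factors were higher (median 2.45) and Igfbpl1 was higher by 5.58. The nuclei left out were high in Snap25 and low in Igfbpl1 and were chosen after the values were seen. The choice therefore favours these directions too, and the counts are no test of them. The astrocyte genes Gja1 (2.01) and Slc1a3 (1.17) and the stem cell genes Vim and Sox9 (2.75) were higher, each in 12 to 15 of 23 animals. Slc1a3 was not called with DESeq2 on library totals (0.78, adjusted p = 0.0939), with TMM (0.79) or against GABA nuclei with 0 of the 5 genes (0.84). Gja1 was not called with the size factors of DESeq2 (0.31). All 8 astrocyte markers had a UMI in members, and their summed level was 1488 CPM against 567 CPM in other GABA nuclei. Without the members holding 2 or more glial or vascular UMIs, 10 animals, 46 members and 374 testable genes were left, and Igfbpl1 was higher by 5.28.

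The scaling of the libraries moved the number of calls. With TMM scaling the median of all genes shifted to -0.31 and 155 genes were higher and 605 lower, and with the size factors of DESeq2 it shifted to -1.51, with 31 higher and 3148 lower. With those size factors 3 of the 11 lineage factors were higher and 2 lower, 3 of the 20 growth cone genes were higher and 5 lower, none of the 12 migration genes was higher and 7 were lower, and all 17 maturation genes were lower. With TMM the counts were 8 and 1, 10 and 2, 4 and 3, and 12 lower. Subtracting the median of all genes takes most of this shift out by construction and is no test of stability. So centred, the list medians were 1.96, 1.93 and 1.92 under the 3 scalings for the lineage factors, 1.29, 1.25 and 1.23 for the growth cone list and -1.17, -1.21 and -1.23 for maturation. Read without that reference, the medians of the growth cone (-0.28), interneuron (-0.78) and astrocyte (-0.44) lists turned negative with the size factors of DESeq2, and that of migration with TMM (-0.16) and with the size factors (-1.36). Neither Sst nor Vip was called with TMM.

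**Figure D3:**
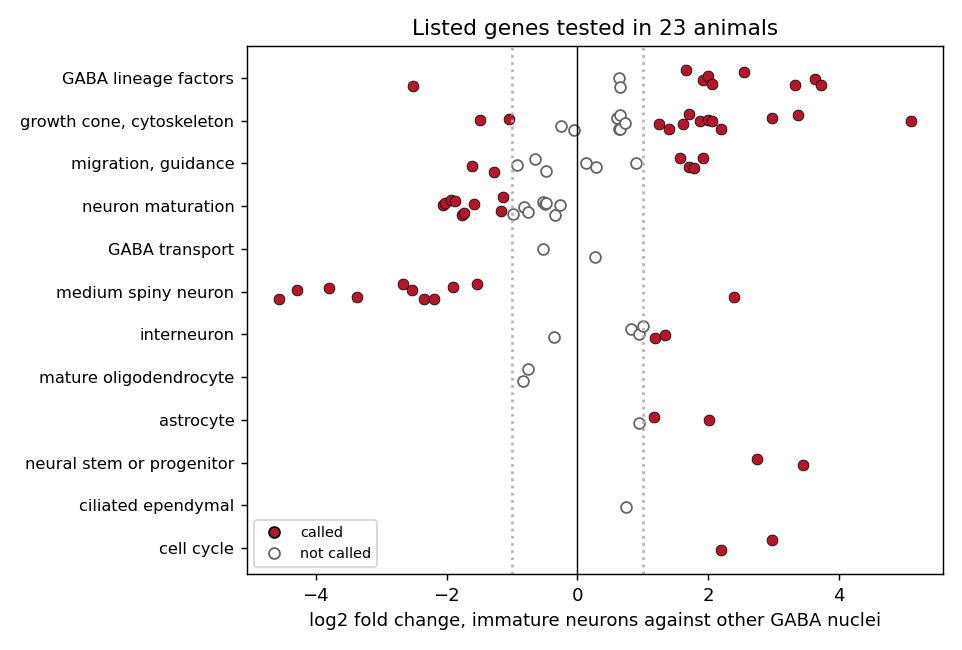
Log2 fold change of every listed gene tested in immature neurons against other GABA nuclei, 1 point per gene in 23 animals; filled points were called and open points were not. Lineage factors and growth cone genes lie mostly to the right of 0 (8 and 11 higher) and medium spiny and maturation genes to the left.

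**Figure D4:**
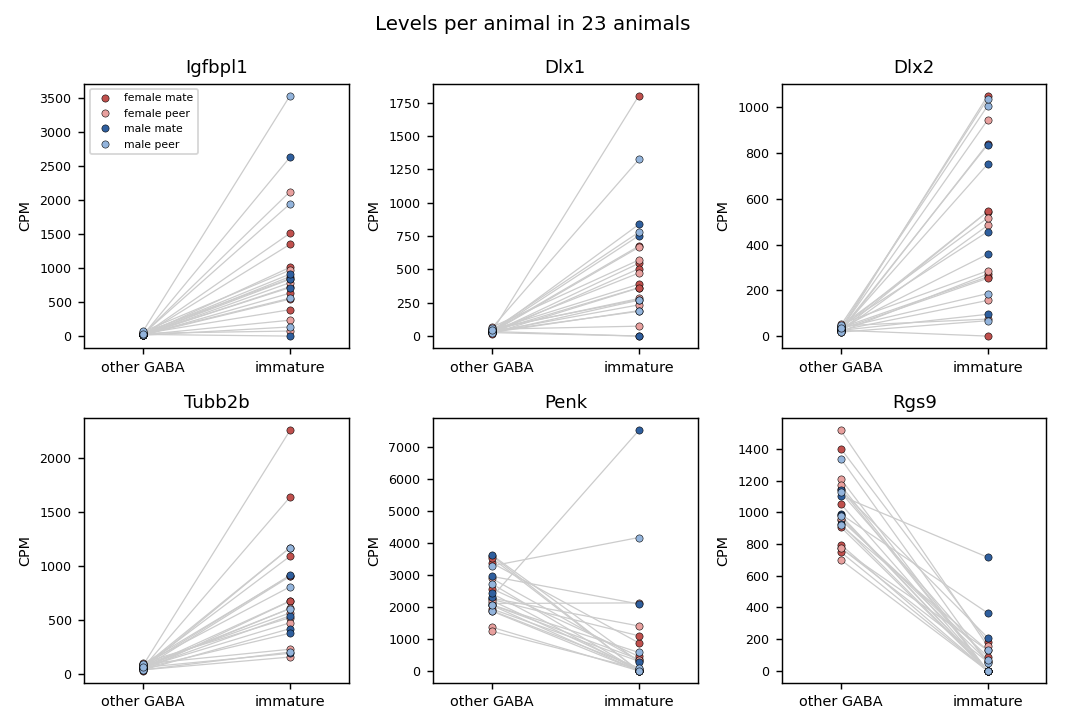
CPM of 6 genes in other GABA nuclei (left points) and immature neurons (right points) of each of 23 animals, joined by lines and coloured by group. Tubb2b is higher in immature neurons of all 23 animals, and Rgs9 is lower in all 23.

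Oligodendrocyte precursors are glial progenitors known to carry some of the rule's genes, and 0.283% of the nuclei in their gate (at least 2 UMIs of Pdgfra, Cspg4 and Sox10, at least 2 detected) met the positive gate. The same members and animals entered this comparison, so it is not independent of the one above. Of 3917 genes tested, 199 were higher in members (5.08%) and 296 lower (7.56%), and the planned TMM scaling and filter called 229 in all. The lineage factors stood apart more widely here, with 9 of 10 tested higher and none lower (median 3.34). Igfbpl1, at 0 to 46.9 CPM in precursors of single animals, differed by 7.48 (SE 0.29, edgeR adjusted p = 4.75e-52), and Dlx1, Dlx2, Sp9 and Dlx5 by 5.57, 5.27, 4.43 and 4.32. Chrna3 (5.42), Nrep (4.04), Tac2 (4.16, UMIs in 11 animals) and Vip (5.24, UMIs in 4 animals) were also among the largest differences of genes with a symbol. Of the growth cone list 10 of 19 were higher and none lower (median 1.05), against 5 and 1 with TMM and 3 and 3 with the size factors of DESeq2, with Tubb2b at 1.22 and Marcks at -0.21. The GABA genes Gad1 (2.80), Gad2 (2.26) and Slc32a1 (2.08) were higher, and Gad2 was so in 23 of 23 animals.

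Genes of the oligodendrocyte lineage are given as a description, since the precursor gate used markers of that lineage and the genes tested passed the filter through their level in precursors. Gpr17, a receptor of differentiating precursors, had 4 UMIs in members and 1672 pooled CPM in precursors, a log2 change of -6.75, and Bcas1 changed by -5.79 and Cav1 by -5.73. Olig2 with 2 UMIs was 63.4-fold lower (17.5 to 523), Olig1 with 3 UMIs 55.1-fold (18.9 to 267), and the genes Calcrl, Tmem255b and Kank1, with 1, 1 and 2 UMIs, 154-fold (27.7 to 6094), 119-fold (21.3 to 4686) and 99.1-fold (27.4 to 819). Fetub, Tmem100 and Atp13a4 had 0 UMIs in members, which against a floor of 3 UMIs over all members makes them at least 62.2-fold, 17.1-fold and 16.6-fold lower. With library totals, 3 of 14 tested genes of the maturation list were lower (Nrgn at -1.52, Slc12a2 at -1.26 and Nefl at -1.12) and none higher, beside 7.56% of all genes lower. Slc12a2 had 15 UMIs in all members and reached the filter through precursors, where it stood at 129 CPM. Slc12a2 was also detected in 52.1% of mature oligodendrocytes, so its fall is not read as one of neuron maturation, although the count includes it. Under TMM and under the size factors of DESeq2 the median of all genes shifted from 0.11 to -0.34 and -1.04 and the calls went to 86 higher and 558 lower, and to 35 and 2118. The growth cone median turned to -0.15 with the size factors of DESeq2.

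Against cycling nuclei, taken as those with at least 2 UMIs of Mki67 and Top2a, few genes of young neurons were called. The members and animals were again the same. Of 3959 genes tested, 183 were higher in members (4.62%) and 214 lower (5.41%), and the planned TMM scaling and filter called 19 in all. None of the 11 tested lineage factors was higher and 1 was lower. Dlx1 ranged from 127 to 1653 CPM in cycling nuclei and 0 to 1802 CPM in members, and its difference of -0.59 was not called (edgeR adjusted p = 0.0640). Igfbpl1, at 531 to 1889 CPM in cycling nuclei, differed by -0.24 (SE 0.20, edgeR adjusted p = 0.511), although its pooled level was higher in members (1119 against 995 CPM). Of the growth cone list 1 of 19 was called, Tubb2a at 1.14, and it was not called with TMM (0.76), with the size factors of DESeq2 (0.43) or without the peptide-rich members (0.33).

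The cell cycle list was lower in 6 of 8 genes, a direction close to the rule itself, which requires 0 UMIs of Mki67 and Top2a. Cenpe had 0 UMIs in members and was at least 22.7-fold lower. The mitotic genes Ect2 and Ube2c, with 6 and 5 UMIs, both changed by -4.28. Other large falls rested on 1 to 3 UMIs in members: Diaph3 was 67.3-fold lower (12.1 to 2659), Depdc1a 61.0-fold (10.9 to 2409), Iqgap3 59.5-fold (16.5 to 491), Kif11 51.3-fold (14.2 to 424), Kif23 44.0-fold (15.1 to 213) and Sapcd2 28.3-fold (7.84 to 234). Of the progenitor genes, Notch1 (-2.01) and Egfr (-1.74) were lower, as was the precursor marker Pdgfra (-4.05), and Vim (-0.70), Sox2 (-0.36) and Pax6 (-0.62) were not called. Egfr and Pdgfra, with 14 and 5 UMIs in all members, reached the filter through cycling nuclei. Ccnd2 stood at 879 pooled CPM in members and 1464 CPM in cycling nuclei, a difference of -0.86 that missed the fold.

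Some genes of neuronal function were higher than in cycling nuclei, namely 3 of 4 GABA genes (among them Slc32a1 at 1.78 and Gad1 at 1.76) and 5 of 13 maturation genes, with Scn1a at 1.59, Syp at 1.34 and Syt1 at 1.28. Among called genes with a symbol, the 10 largest differences were those of Sst (5.21), Vip (4.89), Tac2 (3.53), Npy (3.48), Elfn1 (3.12), Trhde (3.04), Rab3b (2.76), Synpr (2.53), Dgkg (2.24) and Reln (2.21). With DESeq2 on library totals Vip (adjusted p = 0.746), Tac2 (0.0952) and Reln (0.0534) were not called. Without the peptide-rich members, with 19 animals in place of 23 and 2344 genes tested in place of 3959, 112 genes were called in place of 397, 42 higher and 70 lower. Of the lists, 1 of 4 GABA genes and none of 10 tested maturation genes was then called in edgeR. With all members kept, the GABA count was 2 with TMM and 1 with the size factors of DESeq2. TMM gave 73 higher and 460 lower with a median of all genes at -0.34, and the size factors of DESeq2 32 and 1008 at -0.66. The lineage factor median relative to all genes was 0.30, 0.23 and 0.20 in turn, and on its own scale it turned from 0.33 to -0.11 and -0.47. With TMM, 1 of the 13 maturation genes was higher.

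The share of kept nuclei that were immature neurons was small and uneven between animals. In 36 of 40 animals at least 1 was found, with a median of 3 and at most 19. The 4 libraries with none, male mate 2, male peer 1, female peer 1 and female mate 5, allow shares of up to 0.0491%, 0.167%, 0.146% and 0.0795% (3 nuclei of the total). The share was 0.0765% ± 0.0525 (SD, n = 11) in female mate animals, 0.148% ± 0.134 (SD, n = 8) in female peer, 0.0643% ± 0.0534 (SD, n = 11) in male mate and 0.0823% ± 0.0997 (SD, n = 10) in male peer animals. The highest animals were female peer 3 at 0.414% (9 nuclei, exact 95% interval 0.189 to 0.784) and male peer 8 at 0.332% (19 nuclei, 0.200 to 0.518), and the lowest values of all 4 groups were 0. The groups overlapped throughout.

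**Figure D5:**
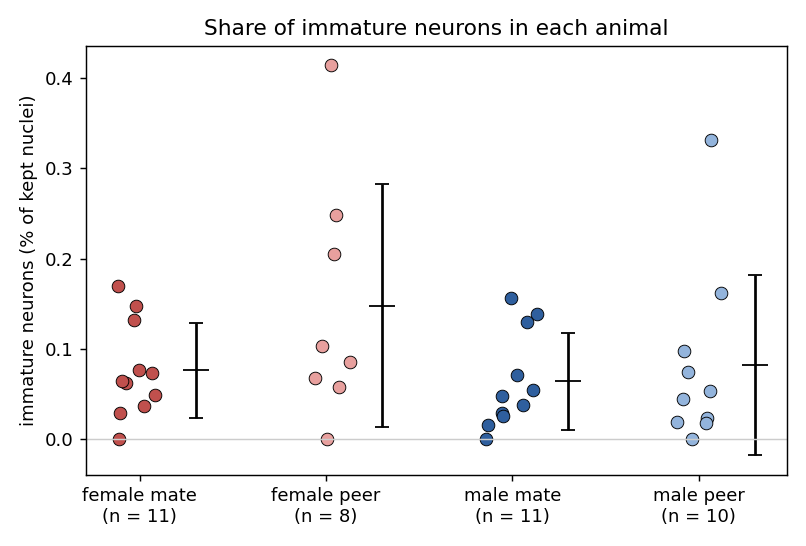
Immature neurons as a percentage of kept nuclei, 1 point per animal, with the mean and SD of each group beside the points. The 4 groups overlap, and female peer 3 (0.414%) and male peer 8 (0.332%) are the highest animals.

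The design varied the partner and the sex, and the share was compared along both. The mate minus peer difference, averaged over the sexes, was -0.0446 percentage points (two-sided permutation test within sex, p = 0.122, adjusted p = 0.305 over 5 contrasts). The female minus male difference was 0.0388 points (permutation p = 0.206, adjusted 0.343), and the difference between the sexes in the pairing effect -0.0531 points (permutation p = 0.373, adjusted 0.466). Within females the mate minus peer difference was -0.0711 points (exact permutation p = 0.122) and within males -0.0180 points (exact permutation p = 0.656). Without female peer 3 the difference within females was -0.0331 points and the overall one -0.0256 points, and without female peer 1 the difference within females was -0.0922 points (exact permutation p = 0.0363, adjusted 0.136). No contrast passed the threshold, which does not show that the shares are alike. The labels number the libraries, and within the blocks of 10 numbers the mate and peer means were 0.0666% and 0.00977%, 0.0627% and 0.144%, 0.106% and 0.0667%, and 0.0539% and 0.168%, so the direction changed between blocks. The first block held no female peer and the second no male peer.

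Across the 40 animals the share went with those of 2 other classes. With the share of cycling nuclei Pearson's r was 0.668 (permutation p = 6.0e-05, adjusted 0.00016 over 4 relations) and Spearman's rho 0.476 (permutation p = 0.00201, adjusted 0.00402). Without the 2 animals of the most extreme cycling share r was 0.367, and within the blocks it was 0.687, 0.889, 0.553 and 0.442. Thinning to 1000 UMIs used only the 123418 kept nuclei with at least 1000 UMIs. It changed the member share alone, so the shares of the other classes stayed those of all kept nuclei. With the thinned member share r was 0.338 (permutation p = 0.0354) and rho 0.219 (permutation p = 0.173). With the share of mature oligodendrocytes, 1.72% to 12.4% of nuclei, r was 0.574 (permutation p = 8.0e-05, adjusted 0.00016) and rho 0.594 (permutation p = 4.0e-05, adjusted 0.00016). It was 0.492 without the 2 extreme animals, and 0.736, 0.633, 0.560 and 0.591 within blocks. Thinned, r was 0.419 (permutation p = 0.00697) and rho 0.351 (permutation p = 0.0280). The mature oligodendrocyte list summed to 253 CPM in members, below the 417 CPM of other GABA nuclei, and no member met the oligodendrocyte gate. With the share of ependymal nuclei r was 0.415 (permutation p = 0.0107, adjusted 0.0143), but rho was 0.249 (permutation p = 0.120, adjusted 0.160) and r was 0.128 without female peer 3 and male peer 10. Within blocks it was 0.144, 0.733, 0.733 and 0.115, and the third block holds neither of these animals. Thinned, r was 0.00457. With the median UMI count of a library r was 0.0119 (permutation p = 0.938), -0.226 without the 2 extreme animals, and 0.409, 0.159, -0.077 and -0.789 within blocks, so its direction differed between blocks. All shares other than the thinned ones divide by the same kept nuclei.

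Expression within the immature neurons was compared between groups in the same 23 animals, of which 8 were mate and 6 peer females, and 5 mate and 4 peer males. Of 145 genes abundant enough to test, edgeR's quasi-likelihood test called 0 (0%) for pairing, sex, their interaction, pairing within females and pairing within males. At an unadjusted p under 0.05 the counts were 8, 3, 4, 4 and 4, and DESeq2 called 0 in each, with 6, 5, 5, 6 and 4 unadjusted. For pairing the lowest p belonged to Vip, which had 340 UMIs in 4 members of 4 animals, all peers: 3 of 6 female peer and 1 of 4 male peer animals, and 0 in all mate animals (edgeR adjusted p = 0.259). Tspan3, a tetraspanin, stood at 545 ± 388 CPM (SD, n = 8) in female mate, 669 ± 261 (n = 6) in female peer, 438 ± 208 (n = 5) in male mate and 961 ± 247 (n = 4) in male peer animals, a log2 difference of -0.85 (SE 0.32, edgeR adjusted p = 0.885). Ncam1 followed at -0.72 (SE 0.29). For sex, Cck differed by 3.17 (SE 1.07, edgeR adjusted p = 0.936) with 48 of its 120 UMIs in female mate 7, ahead of Penk (-1.78) and ND5 (1.13).

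Within females Tubb2b stood at 1163 ± 538 CPM (SD, n = 8) in mate and 424 ± 187 (n = 6) in peer animals, a difference of 1.29 (SE 0.44, edgeR adjusted p = 0.342). It ranged from 673 to 2253 CPM in mate and from 156 to 605 CPM in peer females. Tubb2b was named for its low p among 145 genes, and how many of them separate the groups as widely was not counted. In males it stood at 487 ± 269 CPM (SD, n = 5) in mate and 695 ± 403 (n = 4) in peer animals. Syne1, a nuclear envelope gene, differed by -2.24 (edgeR adjusted p = 0.281), with 105 of 277 UMIs in female peer 8. Both were also among the 3 lowest p of the interaction, with Tubb2b at 1.76 and Syne1 at -2.32 (edgeR adjusted p = 0.961), beside a gene without a symbol, ENSMOCG00000011823, at 2.56. Within males that gene (-1.96), Tspan3 (-1.19) and Ncam1 (-0.95) had the lowest p (edgeR adjusted p = 0.996).

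The levels of Igfbpl1 and Dlx1 overlapped between all 4 groups. Igfbpl1 stood at 881 ± 393 CPM (SD, n = 8) in female mate, 839 ± 725 (n = 6) in female peer, 1020 ± 972 (n = 5) in male mate and 1545 ± 1539 (n = 4) in male peer animals. Dlx1 ranged from 0 to 1802, 74.4 to 666, 0 to 837 and 186 to 1324 CPM in the same order. Neither was called. With a looser filter of 20 UMIs over all animals, 3984 genes were tested and edgeR called 5 for pairing, 2 for sex, 13 for pairing within females and 2 within males. The lowest p of these belonged to Vip, with UMIs in 4 of 23 animals, and for sex to Cck, with UMIs in 11.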

How the data were processed

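Each of the 40 libraries was a 10x Genomics library of nuclei from the nucleus accumbens of 1 animal. The authors deposited a matrix of raw UMI counts per gene and barcode for each library, made with Cell Ranger 3.1.0 per the submitters' processing notes. The genome build was not given in the sources used here. The files list 19130 genes, of which 3807 have no symbol. Groups came from the labels (sex and pairing type).

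The members, the 20 gene lists and the tests were chosen with earlier results of these data known. Barcodes under 500 UMIs or over 5% mitochondrial UMIs were left out. Doublets were scored against simulated neighbours, kept, and left out in an alternative. Counts were summed per animal and class and tested with edgeR 4.0.16 (R 4.3.3), with DESeq2 1.42.0 as an alternative, and shares with permutation tests (100000 resamples, or exact). Intervals and floors cover counting error only.

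The planned minimum of 20 members per animal was met by 0 animals, so at least 3 were required, a choice made after the counts were seen. The planned TMM scaling and expression filter, tested on simulated data, called many unchanged genes against other GABA nuclei. The class comparisons therefore used library totals and a filter on the mean of the class levels (at least 20 UMIs expected in the smaller class), which made few such calls. Against precursors and cycling nuclei the planned setting made few such calls too. Library totals and the class-mean filter were used there as well so that the 3 comparisons share a setting. The simulated counts were drawn in proportion to the library totals, so the simulation could not fault that scaling. It does not show that library totals suit the real classes. Against other GABA nuclei the real calls were 281 higher and 383 lower with library totals. With the size factors of DESeq2 they were 31 higher and 3148 lower. Group comparisons kept the planned scaling and filter. Genes were named by rule: the 10 largest called changes in each direction among genes with a symbol, all genes of the lists, and for groups the 3 lowest p. The split by Sst, Npy and Vip, the 60 nuclei with Mki67 or Top2a and the relations across animals were added after seeing the data. Some genes that this rule takes are not reported here, though the counts over lists include them.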

Additional observations from a re-analysis of the deposited data

Results flagged for a closer look

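In 7 of 36 tested sets of animals (9 genes by group, and the share in the peer groups) 1 animal lay farther from the rest of its group than Dixon's 95% limit allows. The share in the mate groups, with 11 animals each, was not tested. Dixon's rate of about 1 in 20 is for normal values. Several of these sets hold many zeros, and the 9 genes were taken for their low p in the same data. The count of 7 therefore cannot be judged against that rate. The share of immature neurons in male peer 8 was 0.332%, with the other male peer animals at 0 to 0.162% (n = 10). Without that animal the mate minus peer difference within males was 0.00967 percentage points (exact permutation p = 0.681).

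The other 6 values were peptide genes carried by few members. Vip stood at 25520 CPM in female peer 6 (others 0 to 7958 CPM, n = 6) and at 7135 CPM in male peer 7 (others 0, n = 4). Cck stood at 4332 CPM in female mate 7 (others 0 to 1265 CPM, n = 8) and at 3308 CPM in female peer 6 (others 0 to 1089 CPM, n = 6). Penk stood at 7526 CPM in male mate 7 (others 0 to 2092 CPM, n = 5) and at 4173 CPM in male peer 7 (others 0 to 575 CPM, n = 4).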

How the results depend on the processing

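Membership is thin: with a summed gate count of at least 4, at least 2, no rule on the 5 genes or members with glial counts left out, there were 51, 454, 331 and 76 immature neurons in place of 157. Thinning to 1000 UMIs gave 28, but it used only the 123418 nuclei with at least 1000 UMIs, which held 87 of the members. No share contrast passed the threshold under any alternative run. Shares after thinning to 1000 UMIs turned the interaction to 0.00142 points (0.00217 where the thinned counts had to sum to at least 2 in place of 3) and pairing within females to 0.000466 points, and, over the 4 libraries that were left out in turn (male mate 2, female peer 1, female peer 3 and male peer 8), pairing within males ranged from -0.0180 (its value with all libraries) to 0.00967 (without male peer 8). The relation to the ependymal share was 0.00457 after thinning and ranged from 0.133 (without female peer 3) to 0.516 (without male peer 8) over the same 4.

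Calls against other GABA nuclei, precursors and cycling nuclei (664, 495 and 397) became 3770, 229 and 19 with TMM and filterByExpr, 1468, 227 and 19 with filterByExpr, 3179, 2153 and 1040 with DESeq2's size factors, 1907, 1103 and 639 with no filter, 141, 114 and 60 after thinning, 77, 94 and 59 with glial members left out, and, for cycling nuclei, 112 with peptide members left out. Of 1084 pairs of a gene and a setting, 991 kept direction and call, 83 lost the call and 10 reversed. The genes counted were the 10 largest called changes in each direction among genes with a symbol, and the called extremes of each list. Pairs in which the gene was no longer tested were left out, so the counts cover only genes that stayed testable. Against other GABA nuclei Vip was -4.14 (DESeq2, library totals), -0.60 (size factors) and -0.026 (GABA nuclei with 0 of the 5 genes), Sst -0.59 (size factors), -0.33 (glial members left out) and -4.70 (peptide members left out), and Slc1a3 -0.44 (size factors). Against precursors Vip was -2.26 (DESeq2), Sst -3.46 (peptide members left out) and Gja1 -0.12 (size factors). The cause was not tested.

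Group comparisons of expression called 0 genes as designed. Pairing gave 3 with size factors, 5 with no filter, 5 with the 20-UMI filter, 2 with that filter and library totals, and 65 with that filter and no rule on the 5 genes. Sex gave 2, 2 and 3 for the first 3 filter settings. Pairing within females gave 17, 13, 6 and 2 for the 4 filter settings and 1 with peptide members left out, and pairing within males 2, 2, 2 and 64. Fits with at least 10 members, a sum of 4, or glial members left out could not be made between groups, since too few animals remained. No paired analysis was possible because the labels give no replicate number or couple that ties animals of different groups.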

Other observations

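Single markers of other neuron classes differed widely in the members. The interneuron list summed to 5433 CPM against 1586 CPM in other GABA nuclei, most of it Sst, Vip and Npy. Chat and Th, the enzymes of acetylcholine and dopamine synthesis, and Nkx2-1, a factor of ventral interneuron progenitors, had 0 UMIs in the 157 nuclei. Prokr2, a receptor for a guidance signal of olfactory bulb neuroblasts, stood at 23.6 CPM against 2.84 CPM in other GABA nuclei, Draxin, an axon guidance gene, at 40.5 against 1.18 CPM, and Prox1 at 27.0 against 2.28 CPM. Other genes of the same lists stood lower in members, with Dlx6 at 6.75 against 33.0 CPM, Dab1, a reelin adaptor, at 3.37 against 9.88 CPM and Plxna4, a semaphorin receptor, at 33.7 against 57.5 CPM. Rbfox3 (NeuN), a marker of mature neurons, was detected in 3.18% of members, at 20.2 CPM against 71.5 CPM. These are pooled levels from few UMIs with no test.

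Peptide transcripts were concentrated in single nuclei. Of 737 Sst UMIs, 133 (18.0%) lay in 1 of the 23 members with any, and the 340 Vip UMIs lay in 4 members. The 25 members with Cd24a, Dcx and Sox4 all detected had Igfbpl1 at 2500 CPM and Snap25 at 516 CPM. The 98 with Cd24a and Dcx alone had Igfbpl1 at 1001 CPM and Snap25 at 1535 CPM, the 17 with Cd24a and Sox4 alone 296 and 1675 CPM with Vim at 919 CPM, and the 17 with Dcx and Sox4 alone 787 and 621 CPM.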
